A study of Mus musculus with 12 samples.

Results

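The genes of cholesterol synthesis and of the response to sterols were followed in germinal center B cells of lupus-prone mice. They comprised 36 genes, taken by symbol from the 12212 symbols of the count files: 8 of the mevalonate pathway, 11 of the route from squalene to cholesterol, 6 that sense sterols or carry them, 8 of fatty acid synthesis and desaturation, and 3 of sterol efflux. All mice were NZBWF1/J, a hybrid strain that develops lupus-like autoimmunity with age. Spleen B cells were sorted into dark zone and light zone germinal center cells, and 1000 cells went into each library. The 4 groups of 3 libraries each were dark zone cells of treated mice, dark zone cells of untreated mice, light zone cells of treated mice and light zone cells of untreated mice. Treated mice had received 6 doses each of 200 ug CTLA4-IG, a fusion protein that blocks CD28 costimulation, and 250 ug Anti-CD40L, an antibody that blocks the CD40 signal from T cells, within 2 weeks from an age of 18 weeks. No source used here states the age of the untreated mice. The labels do not say whether the replicates of a group came from separate mice, so the spread behind each p-value is that between libraries and may be technical.

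Cells make cholesterol from acetyl-CoA. The mevalonate pathway turns it into isoprenoids, squalene is joined from these, and a series of oxidations and reductions on the sterol ring ends in cholesterol. When membrane sterol falls, SCAP escorts the SREBP transcription factors (encoded by Srebf1 and Srebf2) from the endoplasmic reticulum to the Golgi, where they are cut and released to switch on these enzymes. INSIG proteins hold SCAP back when sterol is plentiful, and oxysterols activate the liver X receptors, which raise the efflux pumps ABCA1 and ABCG1. In germinal centers, B cells divide in the dark zone and receive help from T follicular helper cells, including CD40 ligand, in the light zone, and dividing cells need lipid for membrane.

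None of the 36 genes passed the adjusted threshold of the edgeR test in any comparison. Cyp51, which encodes the lanosterol demethylase of the ring-modifying route, was the member with the smallest p for treatment in the light zone. Its level was higher in all 3 treated light zone libraries than in all 3 untreated ones, which was so for 5.82% of all tested genes. Srebf2 had the largest log2 difference for treatment in the dark zone, and that difference came with 2 libraries: with them left out its sign turned. In the dark zone, 24 of the 36 genes (66.7%) were higher in treated cells, against 52.2% of all tested genes. In the light zone 23 (63.9%) were, against 54.1%. Without 3 treated libraries that stood apart from the other 9, 20 and 21 were higher, against 45.3% and 48.0%.

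The promoters of 28 of the 36 genes could be matched in the RefSeq promoter table (GRCm38.p6, 250 bases before to 50 bases after each annotated start). The letters TCACNCCAC, a form of the sterol regulatory element that SREBPs bind, and CCAAT, the box bound by NF-Y, which acts beside SREBPs, were searched on both strands. Other forms of the element were not searched, so a gene without these letters may still hold one. TCACNCCAC was in the window of 1 of the 28 genes, Hmgcs1, and in 1.34% of the 9492 genes of the count files that have a promoter in the table. CCAAT was in 21 of 28 (75.0%), against 43.3% of those 9492 genes. Of the 16 synthesis enzymes with a window, 15 (93.75%) held CCAAT. In the sequences below, CCAAT, its reverse complement ATTGG and TCACNCCAC are in capitals. The 250 bases before the start are printed for Hmgcs1, the single gene with TCACNCCAC, and for 4 genes on which the results turn. They lie at chr13:119690101-119690350 on the plus strand (Hmgcs1), chr5:114444019-114444268 on the plus strand (Mvk), chr5:4104698-4104947 on the minus strand (Cyp51), chr15:82147019-82147268 on the plus strand (Srebf2) and chr11:120824548-120824797 on the minus strand (Fasn).
Hmgcs1: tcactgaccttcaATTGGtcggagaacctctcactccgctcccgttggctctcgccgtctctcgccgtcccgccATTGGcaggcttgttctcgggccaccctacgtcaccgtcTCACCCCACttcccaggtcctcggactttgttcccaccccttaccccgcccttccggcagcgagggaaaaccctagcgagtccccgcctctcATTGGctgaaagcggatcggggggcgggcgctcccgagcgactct
Mvk: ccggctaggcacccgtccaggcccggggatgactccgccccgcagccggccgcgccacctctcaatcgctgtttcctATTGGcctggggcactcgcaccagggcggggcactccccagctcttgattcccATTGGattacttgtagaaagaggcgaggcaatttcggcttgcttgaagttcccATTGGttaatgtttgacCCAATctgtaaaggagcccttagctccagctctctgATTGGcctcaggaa
Cyp51: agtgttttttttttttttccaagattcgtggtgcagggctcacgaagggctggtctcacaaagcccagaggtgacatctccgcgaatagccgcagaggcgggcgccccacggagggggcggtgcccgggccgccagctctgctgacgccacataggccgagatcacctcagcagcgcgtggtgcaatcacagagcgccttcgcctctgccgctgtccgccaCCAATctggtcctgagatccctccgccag
Srebf2: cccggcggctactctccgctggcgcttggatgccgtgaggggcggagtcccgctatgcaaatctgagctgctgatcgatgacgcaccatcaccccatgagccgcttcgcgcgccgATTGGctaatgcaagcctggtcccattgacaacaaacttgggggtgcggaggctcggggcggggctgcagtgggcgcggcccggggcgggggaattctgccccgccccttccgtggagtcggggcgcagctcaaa
Fasn: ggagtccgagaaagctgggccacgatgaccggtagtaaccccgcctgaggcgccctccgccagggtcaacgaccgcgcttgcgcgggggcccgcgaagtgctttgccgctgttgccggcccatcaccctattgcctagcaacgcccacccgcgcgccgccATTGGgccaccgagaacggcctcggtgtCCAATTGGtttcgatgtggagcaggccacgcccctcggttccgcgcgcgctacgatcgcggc
Hmgcs1 held the element 137 bases before its start, between CCAAT boxes at 176 and 45 bases and without overlap. Mvk held 5 CCAAT boxes and Cyp51 a single one, 29 bases before the start. Starts here are those of RefSeq. By the gene positions given below, the printed bases of Cyp51 and Srebf2 run into the gene, and the CCAAT of Cyp51 lies inside it. In Fasn, 2 boxes on opposite strands overlapped, which gives the run of capitals that is longer than 5 letters. A match is a description of the letters, and neither a match nor its absence says what binds there.

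**Figure D1:**
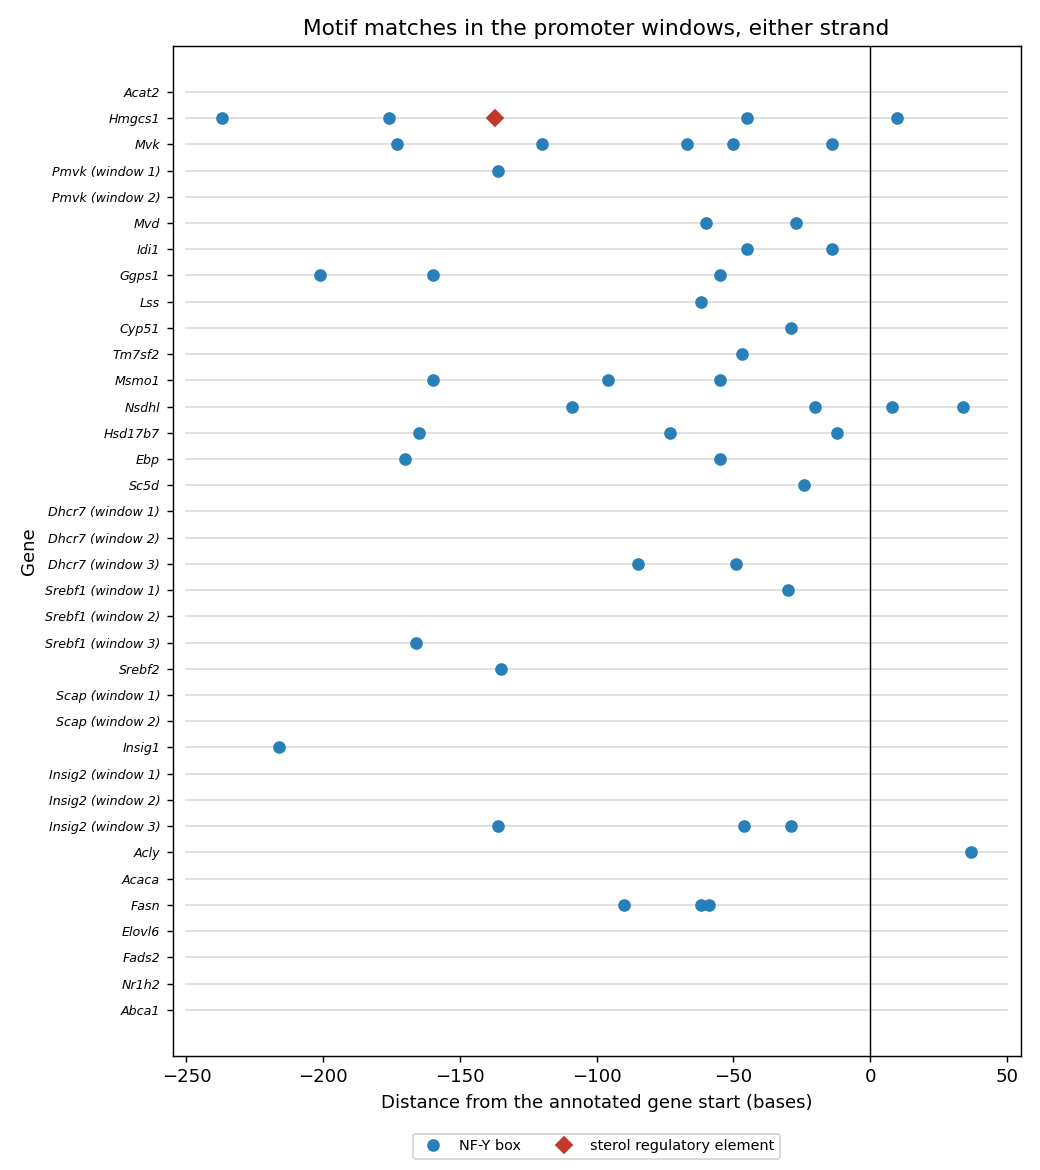
Positions of the 2 motifs in the promoter windows of the 28 matched genes, one row per window, with the distance from the annotated start in bases on the horizontal axis. CCAAT (either strand) was in 21 of the 28 genes and TCACNCCAC in 1, Hmgcs1, at 137 bases before the start.

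The 12 libraries held between 16032700 and 26837700 counts, and 3 counts, taken as the floor for a gene at 0, came to between 0.0776 and 0.206 CPM (a gene's counts scaled to a common library size, the usual CPM unit) on library sizes scaled by the trimmed mean of M values (TMM). Along the first principal component 3 libraries, all from treated mice, stood apart from the other 9, namely replicates 1 and 2 of the treated dark zone group and replicate 2 of the treated light zone group. Their TMM factors were 1.35 to 1.44, against 0.815 to 0.988 in the other 9. Summed macrophage markers were 81.9 to 200.0 CPM in these 3 libraries and 22.3 to 61.6 CPM in the other 9. Of the 11 markers, 5 were above all 9, 1 was below all 9, and 5 were at 0 in at least 1 of the 9. Summed T cell markers were 139 to 304 CPM against 86.9 to 225 CPM, with 4 of 8 above all 9. Summed plasma cell markers were 1853 to 3133 CPM in the 3 libraries and 8041 to 13466 CPM in the other 9. By gene, 2 of the 6 were below all 9 and 0 above. Germinal center B cell markers summed to 6745 to 7562 CPM against 9108 to 12639 CPM, with none of the 11 at 0 in any library. Of these 11, 3 were below all 9 and 1 above. In bulk libraries, fewer cells of a type and less RNA per cell cannot be told apart. Light zone markers summed to 1213 to 1654 CPM in treated light zone libraries against 479 to 626 CPM in treated dark zone libraries, and to 858 to 1224 CPM in untreated light zone libraries against 279 to 530 CPM in untreated dark zone libraries. Dark zone markers overlapped between the treated zones, at 799.8 to 1682 CPM in light zone against 1219.6 to 2319.7 CPM in dark zone libraries, and not between the untreated zones, at 738 to 1167 CPM in light zone against 1505 to 1982 CPM in dark zone libraries. The treatment differences of the genes and lists that follow are therefore given with all 12 libraries and, for those the results turn on, with the 9, where the treated dark zone is 1 library and the treated light zone 2.

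All 36 genes passed the filter on low counts. In each sentence on a gene, the 3 values of a group are replicates 1, 2 and 3, in CPM on TMM-scaled library sizes, which compares libraries and not genes, since gene length is not in the scale. Low values were frequent: 13 of the 36 genes were under 1 CPM in at least 1 library, none of them in the 3 libraries that stood apart, and 6 had a library at 0. Between the 3 libraries that stood apart, a gene's log2 range had a median of 0.48, against 1.61 between the other 3 treated libraries; over all tested genes the medians were 0.53 and 1.46.

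**Figure D2:**
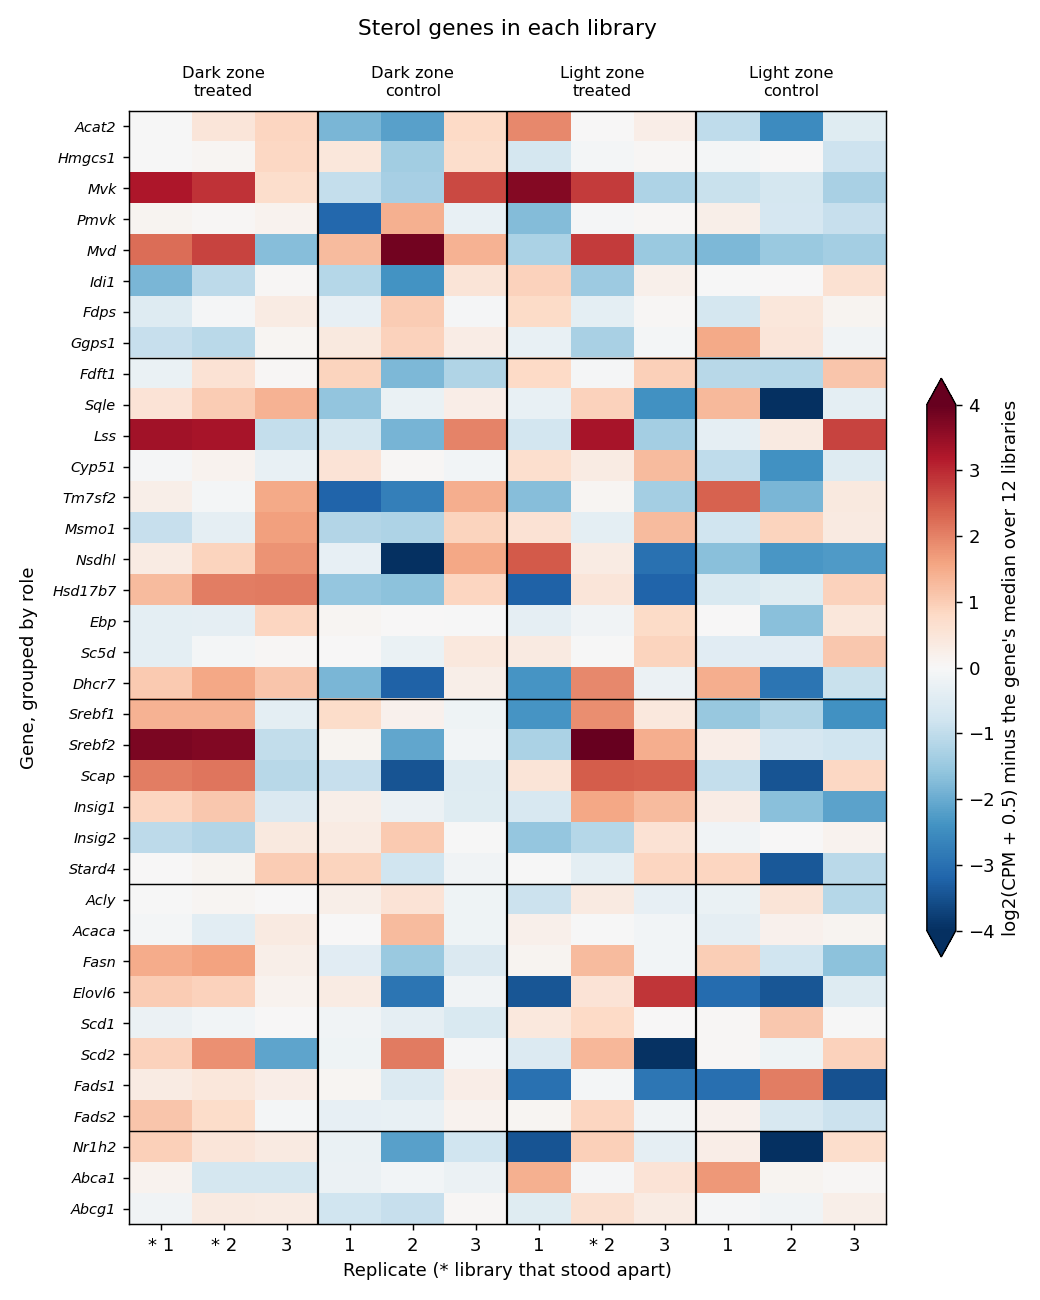
Level of each of the 36 genes in each of the 12 libraries, as log2 (CPM + 0.5) after subtracting the gene's median over the libraries, with genes in rows by role and libraries in columns by group. Srebf2, Srebf1, Fasn, Lss and Fads2 are higher in the 3 libraries that stood apart than in all other 9, and Ggps1 is lower.

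The mevalonate pathway begins with Acat2 and Hmgcs1. Acat2, which joins acetyl-CoA units (chr17:12942890-12960747, minus strand), had 38.7, 55.3 and 72.0 CPM in treated against 10.8, 8.40 and 69.2 CPM in untreated dark zone libraries. In the light zone it had 149.7, 39.9 and 47.3 CPM in treated against 19.03, 6.49 and 27.7 CPM in untreated libraries. The light zone groups of Acat2 did not overlap, while untreated dark zone replicate 3 reached the treated level. A nearly identical gene, Acat3, shares 97.7% of 1477 aligned bases with it, so reads could be split between them. Hmgcs1, which makes HMG-CoA and carries the element printed above, had 43.0, 45.6 and 76.6 CPM in treated against 58.7, 16.3 and 70.4 CPM in untreated dark zone libraries, and 26.4, 41.2 and 44.5 CPM in treated against 41.1, 43.1 and 24.1 CPM in untreated light zone libraries. Its groups overlapped in both zones.

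Mevalonate kinase (Mvk, chr5:114444269-114460591, plus strand) had 18.3, 14.5 and 2.76 CPM in treated against 0.548, 0.304 and 11.99 CPM in untreated dark zone libraries, and 25.3, 13.5 and 0.361 CPM in treated against 0.589, 0.746 and 0.324 CPM in untreated light zone libraries. Mvk was under 1 CPM in 6 libraries and above 10 CPM in 5, so that it was near its floor or clearly detected within both zones. Mvd, the decarboxylase that ends the mevalonate steps (chr8:122433601-122443422, minus strand), had 15.01, 20.9 and 0.521 CPM in treated against 7.40, 47.3 and 8.11 CPM in untreated dark zone libraries. In light zone libraries Mvd had 0.877, 22.3 and 0.671 CPM in treated against 0.458, 0.689 and 0.788 CPM in untreated cells. The light zone level of Mvd was above 1 CPM in only the library that stood apart.

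Idi1, the isomerase of the isoprenoid building blocks, had 62.2, 109 and 233 CPM in treated against 101, 42.6 and 319 CPM in untreated dark zone libraries, and 424, 81.6 and 261 CPM in treated against 224, 225 and 339 CPM in untreated light zone libraries. Fdps, which makes farnesyl diphosphate, had 115, 159 and 206 CPM in treated against 131, 338 and 160.2 CPM in untreated dark zone libraries, and 281, 126 and 171 CPM in treated against 102, 224 and 179.6 CPM in untreated light zone libraries. Groups of both genes overlapped in both zones. Both have processed pseudogenes of over 95% identity, as do Ggps1 (97.2% of 903 aligned bases), Fdft1, Acaca and Elovl6. Ggps1, which makes geranylgeranyl diphosphate for protein prenylation (chr13:14050659-14063488, minus strand), had 14.3, 12.9 and 29.3 CPM in treated against 36.5, 52.9 and 33.7 CPM in untreated dark zone libraries, and 22.2, 10.9 and 25.9 CPM in treated against 79.0, 38.3 and 24.6 CPM in untreated light zone libraries. It was lower in every treated than in every untreated dark zone library, and overlapped in the light zone by a single untreated library. Pmvk, the other kinase of the pathway, ranged from 4.93 to 128 CPM over the 12 libraries.

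Among the enzymes from squalene on, Cyp51 (chr5:4081145-4104746, minus strand) had 79.2, 91.0 and 67.3 CPM in treated against 120.1, 86.0 and 75.7 CPM in untreated dark zone libraries, and 133, 103 and 200.0 CPM in treated against 40.9, 14.98 and 57.4 CPM in untreated light zone libraries. It averaged 145 ± 49.6 CPM in treated and 37.8 ± 21.4 CPM in untreated light zone libraries (SD, n = 3 each). Dark zone groups overlapped, light zone groups did not, and untreated light zone libraries were lower than all untreated dark zone libraries. Cyp51 shares 166 exonic bases with Akap9 on the opposite strand, and these kits do not keep strand, so reads there cannot be told apart. The same holds for Fdft1 with Ctsb (774 bases), Ggps1 with Arid4b (257) and Srebf1 with Rai1 (109), and on the same strand for Fdps with Gm43738 (1124) and Tm7sf2 with Vps51 (532). Fdft1, squalene synthase, had 33.4, 60.5 and 41.1 CPM in treated against 74.5, 11.1 and 17.3 CPM in untreated dark zone libraries, and 69.6, 39.2 and 77.9 CPM in treated against 18.2, 17.9 and 86.6 CPM in untreated light zone libraries. Sqle, the squalene epoxidase that limits the later route, had 36.1, 51.1 and 66.0 CPM in treated against 7.95, 20.6 and 29.8 CPM in untreated dark zone libraries. In the light zone Sqle had 20.1, 47.8 and 4.18 CPM in treated against 61.0, 0.344 and 18.99 CPM in untreated libraries. Sqle groups did not overlap in the dark zone, at a log2 difference of 1.39 (SE 1.28, unadjusted p = 0.299), and overlapped widely in the light zone.

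Lss, lanosterol synthase, had 18.2, 17.5 and 0.441 CPM in treated against 0.617, 0 and 6.74 CPM in untreated dark zone libraries, and 0.585, 17.3 and 0.206 CPM in treated against 0.916, 1.84 and 11.35 CPM in untreated light zone libraries. The 3 highest of its 12 values were those of the libraries that stood apart. Msmo1, the methylsterol monooxygenase that acts after Cyp51, had 53.7, 79.3 and 321 CPM in treated against 45.8, 43.7 and 192 CPM in untreated dark zone libraries, and 155, 78.7 and 248 CPM in treated against 58.7, 193 and 133 CPM in untreated light zone libraries. Its highest dark zone values were in replicate 3 of both treated and untreated cells. The other enzymes after squalene ranged widely: Nsdhl from 0 to 74.2 CPM, Tm7sf2 from 0 to 23.2 CPM, Dhcr7 from 0 to 17.2 CPM and Hsd17b7 from 0.292 to 31.0 CPM over the 12 libraries. Ebp (15.4 to 91.6 CPM) and Sc5d (33.4 to 97.3 CPM) were detected in every library. Hsd17b7 and Dhcr7 were higher in every treated than in every untreated dark zone library, at log2 differences of 2.20 (SE 1.36, unadjusted p = 0.135) and 2.46 (SE 1.86, unadjusted p = 0.213).

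**Figure D3:**
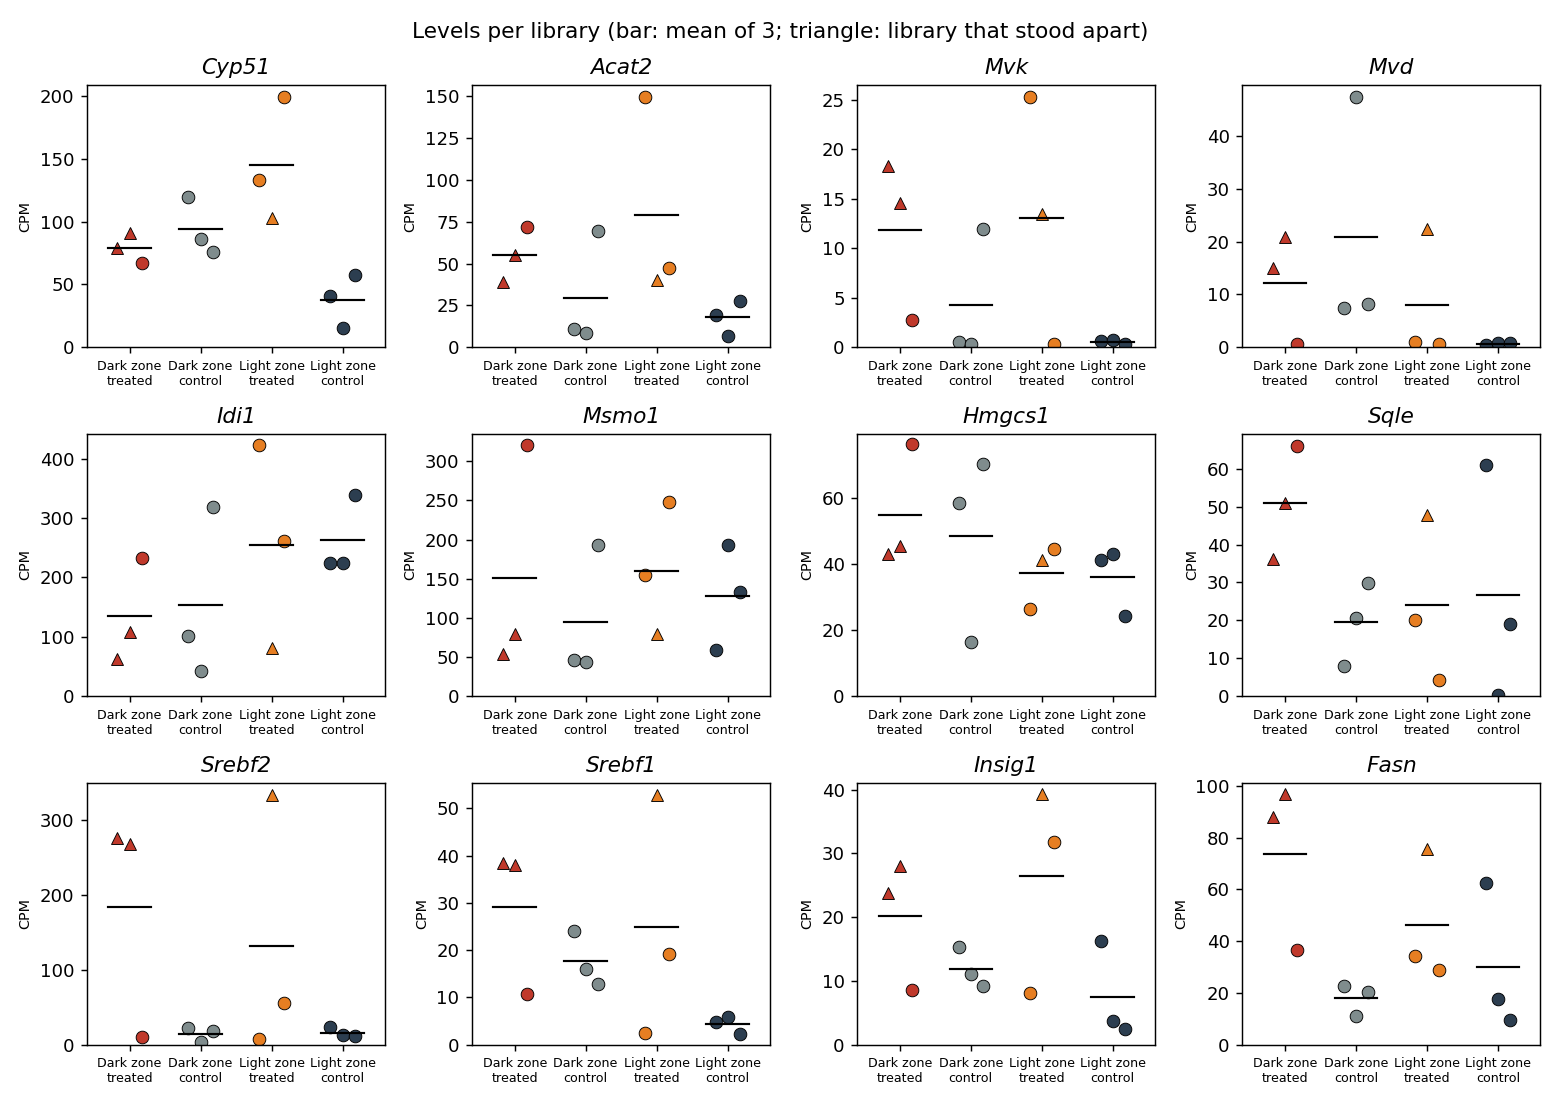
CPM per library, on axes that start at 0, for 12 members in dark zone treated, dark zone untreated, light zone treated and light zone untreated libraries, with triangles for the 3 libraries that stood apart, circles for the others and a bar for each group mean (control in the panels is untreated). Cyp51 spans 103 to 200.0 CPM in treated and 14.98 to 57.4 CPM in untreated light zone libraries, while Srebf2 is at 268 to 334 CPM in the 3 libraries that stood apart and at 4.35 to 56.1 CPM elsewhere.

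Of the sensing genes, Srebf2, whose protein drives the cholesterol enzymes (chr15:82147181-82205379, plus strand), had 276, 268 and 9.77 CPM in treated against 21.8, 4.35 and 18.4 CPM in untreated dark zone libraries, and 8.01, 334 and 56.1 CPM in treated against 24.2, 12.5 and 11.4 CPM in untreated light zone libraries. All 3 values above 100 CPM belonged to the libraries that stood apart, and the other treated dark zone library was within the untreated range of its zone, while treated light zone replicate 1 was below that of its own. Srebf1, whose protein drives mainly fatty acid genes, had 38.5, 38.1 and 10.8 CPM in treated against 24.1, 16.1 and 12.8 CPM in untreated dark zone libraries, and 2.40, 52.9 and 19.2 CPM in treated against 4.71, 5.91 and 2.27 CPM in untreated light zone libraries. Insig1, itself an SREBP target, had 23.8, 28.1 and 8.53 CPM in treated against 15.3, 11.1 and 9.23 CPM in untreated dark zone libraries, and 8.13, 39.2 and 31.8 CPM in treated against 16.2, 3.73 and 2.55 CPM in untreated light zone libraries. Both Srebf genes and Fasn, Lss and Fads2 were higher in the 3 libraries that stood apart than in all other 9 libraries, 5 of 36 members against 13.7% of all tested genes. Ggps1 was lower there than in all 9, 1 of 36 against 16.7%. Summed macrophage markers were higher and summed plasma cell and germinal center B cell markers lower in these 3 libraries than in all other 9, while T cell sums overlapped. Neutrophil markers summed to 1.68 to 59.8 CPM in the 3 libraries and to 0 to 2.28 CPM in the other 9, with 4 of 5 above all 9. The part of these cells in the Srebf2 level was not tested.

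Stard4, a carrier of cholesterol between membranes, had 36.6, 38.9 and 74.1 CPM in treated against 66.9, 20.4 and 32.4 CPM in untreated dark zone libraries, and 35.6, 27.7 and 66.5 CPM in treated against 65.5, 2.98 and 16.8 CPM in untreated light zone libraries, with overlap in both zones. Scap ranged from 0 to 29.1 CPM over the 12 libraries and Insig2 from 12.8 to 80.5 CPM.

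Fasn, fatty acid synthase (chr11:120805846-120824547, minus strand), had 87.8, 96.9 and 36.5 CPM in treated against 22.7, 10.9 and 20.6 CPM in untreated dark zone libraries. In the light zone it had 34.1, 75.6 and 28.7 CPM in treated against 62.7, 17.7 and 9.64 CPM in untreated libraries. Dark zone groups of Fasn did not overlap, including the 1 treated library that did not stand apart, and light zone groups overlapped. Scd1, a stearoyl-CoA desaturase, had 78.3, 85.7 and 93.0 CPM in treated against 82.8, 72.1 and 59.8 CPM in untreated dark zone libraries, and 124, 160.2 and 92.8 CPM in treated against 96.0, 196 and 91.2 CPM in untreated light zone libraries. Its groups overlapped in both zones, and it was detected in every library. Scd2, a paralog that shares 95.5% of 623 aligned bases with Scd1, had 17.1, 32.4 and 1.64 CPM in treated against 7.75, 38.7 and 8.49 CPM in untreated dark zone libraries, and 5.79, 23.1 and 0.103 CPM in treated against 9.09, 7.81 and 16.9 CPM in untreated light zone libraries. Over the 12 libraries, Acly, which supplies cytosolic acetyl-CoA, ranged from 27.8 to 89.1 CPM, Acaca from 12.1 to 40.0 CPM and the elongase Elovl6 from 0 to 38.4 CPM. The desaturase genes Fads1 and Fads2 ranged from 0.139 to 29.04 CPM and from 0.278 to 2.58 CPM.

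The efflux pump Abca1 had 12.2, 6.73 and 6.61 CPM in treated against 9.32, 10.3 and 9.39 CPM in untreated dark zone libraries, and 30.7, 10.7 and 16.4 CPM in treated against 38.1, 11.9 and 11.6 CPM in untreated light zone libraries. Abcg1, the other pump, had 10.98, 15.7 and 15.5 CPM in treated against 6.92, 6.17 and 12.8 CPM in untreated dark zone libraries, and 8.60, 19.4 and 15.6 CPM in treated against 11.8, 11.1 and 14.6 CPM in untreated light zone libraries. Treated and untreated groups of both pumps overlapped in both zones, and Abca1 was higher in every untreated light zone than in every untreated dark zone library. The liver X receptor gene Nr1h2 ranged from 1.21 to 55.3 CPM over the 12 libraries and was higher in every treated than in every untreated dark zone library (log2 difference 1.52, SE 1.21, unadjusted p = 0.235).

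In the dark zone, treated cells were compared with untreated cells for what blocking costimulation and CD40 ligand did to these genes. Fasn was higher in all 3 treated libraries and Srebf2 in 2 of 3, while Ggps1 was lower in all 3. None of the 36 genes passed at an adjusted p under 0.05 (edgeR quasi-likelihood test, 0% of the 12081 tested genes passing). At an unadjusted p under 0.05, 2 members were higher and 0 lower, against 4.87% and 4.03% of all tested genes. These were Srebf2, with a log2 difference of 3.64 (SE 1.38, unadjusted p = 0.0241, edgeR adjusted p = 0.528), and Fasn, with 2.03 (SE 0.75, unadjusted p = 0.0210, edgeR adjusted p = 0.528). With the 9 libraries the log2 difference was -0.59 for Srebf2 and 1.03 for Fasn. DESeq2, run as an alternative, called 0 members with 12 libraries (0.62% of all genes) and 1 with 9 (1.87%), Mvd, whose edgeR log2 difference with 9 libraries was -5.30 on 1 treated library. Groups did not overlap in 7 members, 6 higher (Sqle, Hsd17b7, Dhcr7, Fasn, Fads1 and Nr1h2) and 1 lower (Ggps1), against 12.5% and 11.2% of all genes.

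Over the 36 members, the median log2 difference for treatment in the dark zone was 0.55, against 0.06 over all tested genes, and 24 were higher, or 20 with the 9 libraries, where the median was 0.21 against -0.11. The share of all tested genes that were higher was 52.2%, or 45.3% with the 9 libraries. By role, 3 of 8 mevalonate genes were higher (median log2 difference -0.18), 9 of 11 from squalene on (0.78), 5 of 6 sensing genes (0.74), 5 of 8 fatty acid genes (0.33) and 2 of 3 efflux genes (0.71). With the 9 libraries the squalene group kept a positive median (1.53, 8 of 11 higher) and the sensing group had a negative one (-0.29, 2 of 6 higher). These counts depend on the scaling: with library totals in place of TMM, the median of all genes shifted by 0.45 in the dark zone and 0.29 in the light zone, and 32 and 31 members were higher.

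In the light zone, where B cells meet T cell help, the same treatment comparison had 6 members higher and 0 lower at an unadjusted p under 0.05, against 5.83% and 1.53% of all tested genes, and none passed the adjusted threshold (edgeR, 0% of all genes). Cyp51 had a log2 difference of 1.94 (SE 0.49, unadjusted p = 0.00231, edgeR adjusted p = 0.674), and with the 9 libraries 2.15 (SE 0.56, unadjusted p = 0.00655). DESeq2 called Cyp51 at an adjusted p of 0.0137 with 12 libraries, its single member among 1.9% of all genes. With 9 libraries it called 2 members among 3.72% of all genes, Cyp51 (adjusted p = 0.0108) and Hsd17b7 (adjusted p = 0.00556), the second at an edgeR log2 difference of -4.61. Acat2 had 2.15 (SE 0.91, unadjusted p = 0.0379) and Mvk 4.55 (SE 1.72, unadjusted p = 0.0235) as log2 differences, and with the 9 libraries these were 2.49 and 4.54. Without treated light zone replicate 1 they were 1.30 for Acat2 and 3.64 for Mvk, and of the 2 treated light zone libraries among the 9, the other had 0.361 CPM of Mvk, within the untreated range. The other 3 were smaller without the library that stood apart: the log2 difference was 3.62 for Mvd (0.27 with 9 libraries), 2.53 for Srebf1 (1.33) and 3.05 for Srebf2 (1.003). Groups did not overlap in 2 members, Cyp51 and Acat2, both higher, and 0 were lower, against 5.82% and 5.49% of all genes.

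Members' log2 differences for treatment in the light zone had a median of 0.27, against 0.10 over all tested genes, and 23 were higher, or 21 with the 9 libraries, where the median was 0.24 against -0.04. The share of all tested genes that were higher was 54.1%, or 48.0% with the 9 libraries. Sensing genes had the highest median of the roles, 2.14 with 5 of 6 higher, and 1.17 with the 9 libraries, also 5 of 6. The other roles had medians of 0.12 (mevalonate, 5 of 8 higher), 0.34 (from squalene on, 8 of 11), 0.01 (fatty acid, 4 of 8) and -0.02 (efflux, 1 of 3). With the 9 libraries these were 0.33 (5 of 8), 0.41 (6 of 11), -0.07 (4 of 8) and -0.04 (1 of 3).

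**Figure D4:**
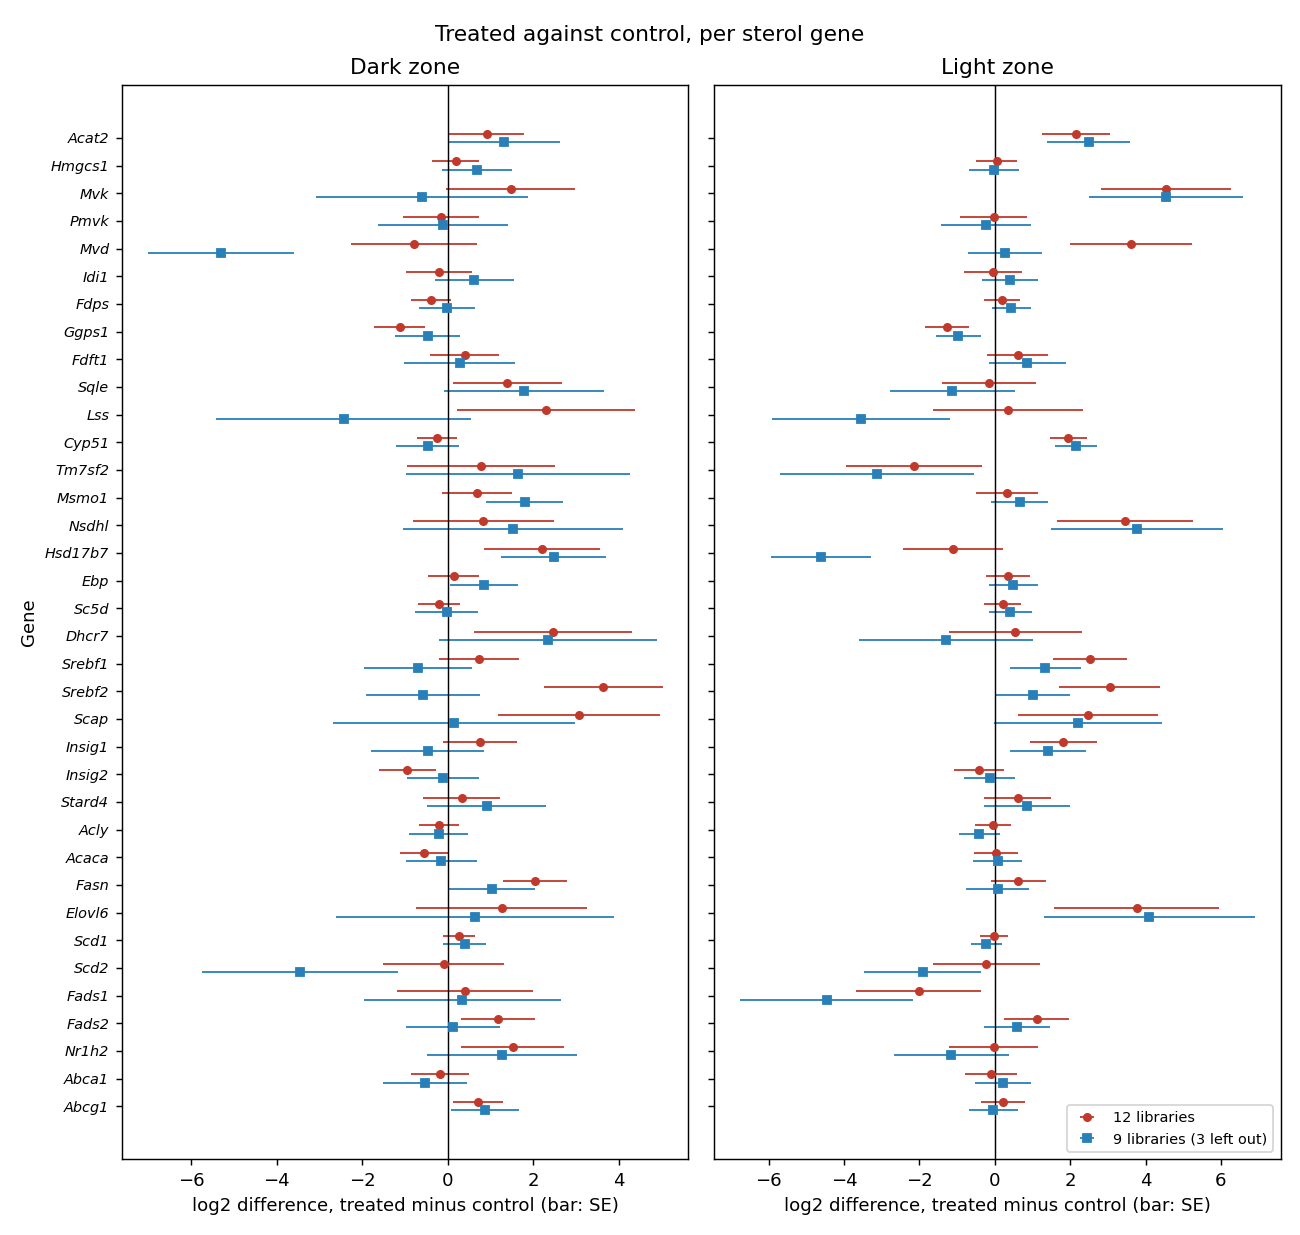
Log2 difference of each member, treated minus untreated, in the dark zone and the light zone, with bars of 1 SE, from the fit with 12 libraries and from the fit with 9. Srebf2 in the dark zone lies at 3.64 with 12 libraries and at -0.59 with 9, while Cyp51 in the light zone lies at 1.94 and 2.15.

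The treatment differences were set against each other between zones, light zone effect minus dark zone effect. Cyp51 had a difference of log2 effects of 2.19 (SE 0.68, unadjusted p = 0.00816, edgeR adjusted p = 0.9999), or 2.62 with the 9 libraries. It was the single member with an unadjusted p under 0.05, against 2.28% of all tested genes, and no gene passed the adjusted threshold (0% of all genes). A difference in treatment effect between the zones was therefore not shown for any member. DESeq2 called 0 members here (0.136% of all genes), and with the 9 libraries 1, Hsd17b7 (2.04%).

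Averaged over the zones, the log2 difference between treated and untreated cells had an unadjusted p under 0.05 in 6 members that were higher and 1 that was lower, against 10.8% and 5.88% of all tested genes, and none passed the adjusted threshold (edgeR, 0% of all genes). Srebf2 had 3.34 (SE 0.97, unadjusted p = 0.00558, edgeR adjusted p = 0.229), Mvk 3.01 (SE 1.13, unadjusted p = 0.0228) and Srebf1 1.63 (SE 0.68, unadjusted p = 0.0361). Acat2 was at 1.53, Fasn at 1.33 and Cyp51 at 0.85, all as log2 differences. Ggps1 was at -1.20 (SE 0.42, unadjusted p = 0.0161). With the 9 libraries the averaged log2 difference was 0.21 for Srebf2, 0.32 for Srebf1, 0.55 for Fasn and -0.72 for Ggps1, and 1.97 for Mvk, 1.90 for Acat2 and 0.84 for Cyp51. DESeq2 with 12 libraries called 3 members, Srebf2 (adjusted p = 0.00379), Mvk (0.0424) and Ggps1 (0.0491), among 6.32% of all genes, and with the 9 libraries 0 members (3.56% of all genes).

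Between the zones of untreated mice, light zone cells had less Mvd and less Cyp51 than dark zone cells in every library, and more Scd1. The log2 difference, light minus dark, was -5.01 for Mvd (SE 1.74, unadjusted p = 0.0154), -1.31 for Cyp51 (SE 0.48, unadjusted p = 0.0199) and 0.84 for Scd1 (SE 0.38, unadjusted p = 0.0480), each at an edgeR adjusted p of 1. Without untreated light zone replicate 2, the log2 difference was 0.39 for Scd1 and -0.93 for Cyp51. These 3 were the members with an unadjusted p under 0.05, 1 higher and 2 lower, against 1.9% and 3.02% of all tested genes, and no gene passed the adjusted threshold (0%). DESeq2 called Mvd (adjusted p = 0.0306) among 0.96% of all genes, and with 9 libraries also Mvd (1.01%). Over all members 18 were higher in the light zone, with a median log2 difference of -0.04 against 0.00 over all genes. Groups did not overlap in 5 members, Scd1 and Abca1 higher and Mvd, Cyp51 and Srebf1 lower, against 4.47% and 5.6% of all genes. No library that stood apart belongs to these groups. The untreated light zone libraries are the same as in the treatment comparison of that zone, so the 2 differences of Cyp51 share their low values.

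Between the zones of treated mice, no member had an unadjusted p under 0.05 (2.06% of all tested genes had one, and 0% passed the adjusted threshold). Cyp51 had a log2 difference, light minus dark, of 0.88 (unadjusted p = 0.0934) and Hsd17b7 of -2.89 (unadjusted p = 0.0633). DESeq2 called 0 members with 12 libraries (0.0085% of all genes) and 1, Hsd17b7, with 9 (3.48%). In 4 members the groups did not overlap, Cyp51 higher and Pmvk, Hsd17b7 and Fads1 lower, against 2.24% and 3.55% of all genes, and 19 members were higher, with a median log2 difference of 0.02 against 0.05. With the 9 libraries 17 were higher, with a median of -0.17 against 0.09.

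The 19 enzymes from acetyl-CoA to cholesterol were also counted per library by how many stood above their own median over the 12 libraries. In the dark zone, treated libraries had 9, 12 and 16 of the 19 above, and untreated libraries 7, 6 and 14. The highest counts of the series were in replicate 3 of both dark zone groups, whose Srebf2 levels were 9.77 CPM (treated) and 18.4 CPM (untreated), and the groups overlapped. Light zone treated libraries had 9, 10 and 10 of the 19 above, and light zone untreated libraries 6, 6 and 9. Over all 36 members the counts were 21, 25 and 26 in treated against 16, 11 and 17 in untreated dark zone libraries, and 15, 22 and 20 in treated against 15, 12 and 16 in untreated light zone libraries. The share of all tested genes above their own median was 56.1 to 56.9% in the 3 libraries that stood apart. In the other 9 it was 46.0 to 50.9%.

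**Figure D5:**
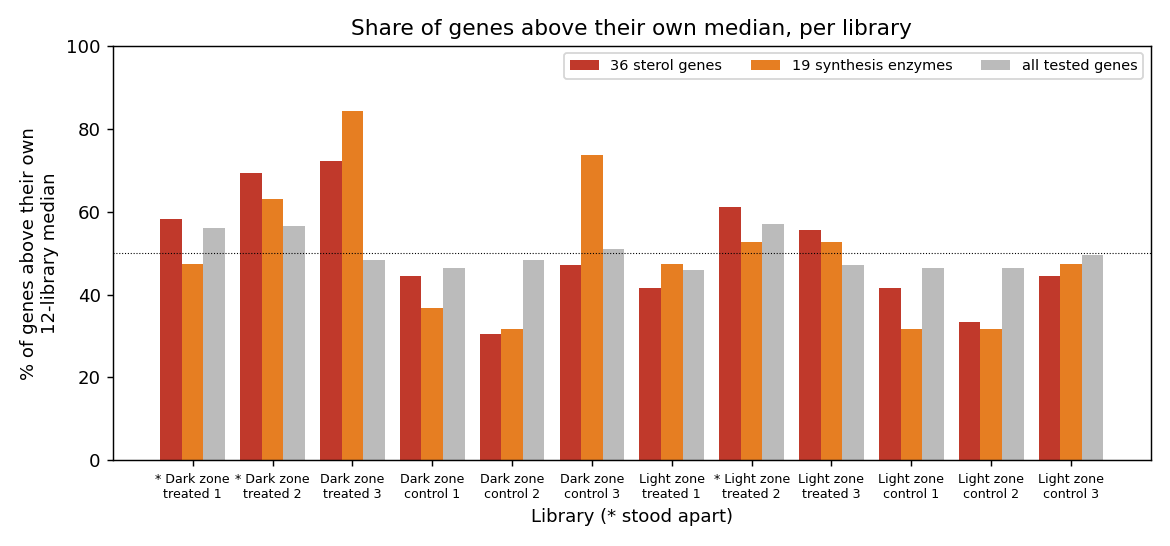
Percentage of the 36 members, of the 19 cholesterol synthesis enzymes and of all tested genes above the gene's own median over the 12 libraries, as bars per library, in dark zone treated, dark zone untreated, light zone treated and light zone untreated libraries (control in the labels), with an asterisk at the 3 that stood apart. The enzymes reach 16 of 19 in treated and 14 of 19 in untreated dark zone replicate 3.

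A wider list of 57 genes of sterol synthesis, uptake, storage, oxysterols and isoprenoid use had 48 genes in the files, all of them tested, and none passed the adjusted threshold. For treatment, 27 of 48 were higher in the dark zone and 30 of 48 in the light zone, with median log2 differences of 0.18 and 0.54, and with the 9 libraries 15 and 22 of 48 (-0.49 and -0.11). Of all tested genes, 52.2% and 54.1% were higher, and with the 9 libraries 45.3% and 48.0%. At an unadjusted p under 0.05, 2 were higher and 0 lower in the dark zone, and 3 higher and 1 lower in the light zone, against 4.87% and 4.03% of all tested genes in the dark zone and 5.83% and 1.53% in the light zone. Gpr183, the oxysterol receptor that guides B cells in lymphoid tissue, had 7.34, 12.7 and 20.1 CPM in treated against 3.84, 24.4 and 0.477 CPM in untreated dark zone libraries, and 0.117, 25.3 and 24.1 CPM in treated against 1.70, 1.26 and 2.41 CPM in untreated light zone libraries. Its light zone log2 difference was 3.20 (SE 1.59, unadjusted p = 0.0709), and 2.75 with the 9 libraries.

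Among the smallest p-values of the wider list for treatment in the dark zone were those of Rnf145, Lpcat3 and Mylip. Rnf145, a sterol-responsive ubiquitin ligase, had 92.0, 68.7 and 24.3 CPM in treated against 6.51, 14.8 and 18.0 CPM in untreated dark zone libraries (log2 difference 2.23, SE 0.72, unadjusted p = 0.0104). Lpcat3, a liver X receptor target that remodels phospholipids, had 20.5, 31.8 and 26.3 CPM against 0.685, 0.152 and 6.79 CPM (log2 difference 3.36, SE 1.22, unadjusted p = 0.0195). Both were higher in every treated than in every untreated dark zone library, including the 1 treated library that did not stand apart. With the 9 libraries the log2 difference was 0.91 for Rnf145, which was higher in the 3 libraries that stood apart than in all other 9, and 3.39 for Lpcat3. Mylip had a log2 difference of -1.95, and -3.66 with the 9 libraries. In the light zone, those of Osbp, Rxra and Tspo were among the smallest. Osbp, which exchanges cholesterol at membrane contacts, had 13.9, 33.5 and 49.1 CPM in treated against 4.58, 0.918 and 3.38 CPM in untreated light zone libraries (log2 difference 3.44, SE 0.98, unadjusted p = 0.00527). The light zone groups of Osbp did not overlap, and its log2 difference was 3.42 with the 9 libraries. The log2 difference was 3.52 for Rxra (2.42 with the 9 libraries), at levels of at most 3.49 CPM, and -0.79 for Tspo (SE 0.35, and -0.80 with the 9).

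In the zone comparison of untreated mice, Erlin2, Osbpl2 and Npc2 were among the wider genes with the smallest p, at log2 differences, light minus dark, of 3.97, -2.78 and 1.37. In treated mice they were Ubxn8, Rxra, Elovl5 and Nus1, with unadjusted p between 0.088 and 0.256.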

How the data were processed

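RNA of 1000 sorted cells per library was amplified with SMART-Seq v4 Ultra and made into libraries with Nextera XT, per the labels' protocols, kits that do not keep strand. The deposited tables hold estimated counts per gene symbol that the authors made; BWA and mm10 are named per the submitters' processing notes, and the counting tool, the BWA version and the annotation are named in no source used here. Values were whole or midway between whole numbers (7.7% of all values) and were rounded, midway values upward; blanks were taken as 0.

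Each of the 12 libraries was put in 1 of 4 groups by its title. Genes were filtered with filterByExpr (minimum count 10, minimum total 15), which left 12081 of 12212. edgeR 4.0.16 in R 4.3.3 (TMM, robust quasi-likelihood F test, two-sided) was fitted once over all 12 libraries with a term per group; p-values were Benjamini-Hochberg adjusted over all tested genes, at a threshold of 0.05. CPM used TMM-scaled library sizes, and log2 CPM for principal components a prior count of 2. Counts in these PCR libraries carry no molecular identifiers, so floors cover counting error only. The model fit was tested on simulated data.

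Alternatives were DESeq2 1.42.0, its size factors, no filter, unrounded counts, leaving out each library, a replicate block, and 9 libraries without the 3 that stood apart; library totals without TMM and DESeq2 on 9 libraries were added after seeing the data. Values per library are given for 16 members listed by name and for every member with an unadjusted p under 0.05 in a comparison of 2 groups or of their average, and the other members are given by range; of the wider genes, the 4 with the smallest p in each of the 4 comparisons of 2 groups and Gpr183 are named, except some genes that are not reported here. The members and lists were chosen with earlier results of these data known. Positions of genes are from GENCODE M21 (mm10), similar copies from BLAST+ 2.17.0 (at least 95% identity over at least 200 bases) and promoters from RefSeq (GRCm38.p6).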

Additional observations from a re-analysis of the deposited data

How the results depend on the processing

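Of 740 values recomputed, 711 were counted as kept. For a gene's log2 difference this meant the same direction and side of the threshold. For a list's median it meant a move of less than 0.43, also through 0. Counts were kept at a similar size, which includes counts of 0 that stayed 0. The 2 gene values that reversed were both Srebf2 in the dark zone. Its log2 difference, treated minus untreated, was -0.59 with 9 libraries and -0.62 with DESeq2 on 9 libraries. edgeR called 0 members and 0 of all genes under every setting. DESeq2 called 73, 223, 744, 113, 1 and 16 of all genes (treatment in the dark zone, in the light zone, averaged, zones of untreated mice, zones of treated mice, difference of effects), and on 9 libraries 220, 439, 403, 119, 379 and 231. Among members it called 1 in the light zone (Cyp51), 3 averaged and 1 between zones of untreated mice (Mvd), and on 9 libraries 1, 2, 1, 1 and 1 in all comparisons but the averaged one, which had 0. The cause of these differences between tools was not tested. With 9 libraries the single treated dark zone library is assumed to vary like the other groups.

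Leaving out 1 library, the members' median log2 difference ranged from 0.38 to 0.61 for treatment in the dark zone, 0.22 to 0.50 in the light zone and 0.15 to 0.77 averaged, and from -0.39 to 0.19 between zones of untreated mice, -0.18 to 0.02 of treated mice and -0.13 to 0.20 for the difference of effects. Same-numbered libraries were not taken as paired: 3 of 6 pairs across zones and 0 of 6 across treatments had a correlation over 0.1, and 2 of 6 dark zone libraries correlated best with their own number. The highest correlation across zones, 0.54, was that of treated replicate 2. Both libraries of that pair are among the 3 that stood apart, so pairing and standing apart cannot be told apart there. With a replicate block, 0 members were called and Cyp51 in the light zone had a log2 difference of 2.00. Low values were frequent, with 13 of 36 members under 1 CPM in at least 1 library, and the part of depth in this was not tested.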

Other observations

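Genes of sterol handling outside the 36 were counted by role, treated against untreated cells, as log2 differences from the edgeR fit, in which none passed the adjusted threshold. Of 16 genes of storage, transport and efflux, such as the lysosomal cholesterol exporters and the oxysterol binding proteins, 12 were higher in the dark zone (median log2 difference 0.38) and 13 in the light zone (median 0.86), and with the 9 libraries 6 (median -0.30) and 9 (median 0.20). Of 17 genes of synthesis, uptake and SREBP control, 7 were higher in the dark zone (median -0.10) and 9 in the light zone (median 0.00), and with the 9 libraries 5 (median -0.61) and 7 (median -0.12). Of 12 genes that use isoprenoids, among them the protein prenyltransferases, 5 were higher in the dark zone (median -0.05) and 7 in the light zone (median 0.28), and with the 9 libraries 2 (median -0.63) and 5 (median -0.23). Of 3 genes of oxysterols and their receptor, 3 were higher in the dark zone (median 0.42) and 1 in the light zone (median -0.64), and with the 9 libraries 2 (median 1.08) and 1 (median -1.56). Of all tested genes, 52.2% were higher in the dark zone and 54.1% in the light zone with 12 libraries, and 45.3% and 48.0% with the 9. Their medians were 0.06 and 0.10, or -0.11 and -0.04 with the 9. These lists were chosen with earlier results of these data known.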
